A study of Mus musculus with 8 samples.

Results

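The aquaporins are channel proteins through which water, and for some members glycerol, crosses cell membranes. The group described here was chosen by gene symbol and comprised 8 of the 18193 genes that the array annotation names: the water channels Aqp1, Aqp4, Aqp5 and Aqp8, the aquaglyceroporins Aqp3, Aqp7 and Aqp9, and the unorthodox member Aqp11. Their RNA was measured in livers of glycerol kinase knockout pups (n = 4) and of age-matched wild-type littermates (n = 4). All pups were labelled as male C57BL/6J mice on day of life 3, and there was 1 Affymetrix Mouse 430 2.0 array for each liver. The labels call the pups glycerol kinase knockout mice and name no tissue to which the loss is limited. This enzyme turns glycerol into glycerol 3-phosphate. The design notes of the series describe low blood glucose and acidosis at this age. The number of arrays limits the precision of every value below.

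Aquaporins assemble as tetramers in which each subunit holds its own pore. In rodent liver, Aqp9 lies on the blood-facing membrane of hepatocytes and lets in the glycerol that fat tissue releases through Aqp7, whereas Aqp8 lies in vesicles and at the bile canaliculus, where water follows bile salts, and in inner mitochondrial membranes. Aqp1 is a water channel of red blood cells, endothelium and bile duct cells. Once inside the hepatocyte, glycerol is normally phosphorylated by glycerol kinase, the step that the knockout removes.

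A probe set is a group of short probes for a stretch of transcript, and its signal is given on a linear scale in arbitrary units. The 8 genes were read by 17 probe sets. Of these, 7 reached a signal of 200 on at least 4 of the 8 arrays and were tested in a fit of all 20395 probe sets that did so. They stood for 5 genes (Aqp1, Aqp3, Aqp8, Aqp9 and Aqp11), while Aqp4, Aqp5 and Aqp7 had no probe set that reached this minimum. Signals of different probe sets have no common scale, so levels are compared between livers and never between genes.

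Some differences between arrays did not follow the groups. The array for wild type 4 had an Xist signal of 10506, against 196 to 396 on the other 7 arrays, which goes against its label of male. Replicates 1 and 2 of both groups differed from replicates 3 and 4 in the spiked-in BioB control (141 to 167 in the first set, 258 to 338 in the second), and in the 3' to 5' ratio of the transferrin receptor control (6.50 to 6.72 in the first, 4.21 to 4.83 in the second). These are called the first and second array set here; the labels give replicate numbers only and name no batch. Ratios of 3' to 5' probe sets tend to rise as RNA degrades. For pyruvate carboxylase they were 7.03 and 4.93 in knockout 1 and 2, against 2.06 to 3.46 on the other 6 arrays, while the transferrin receptor ratio was 6.55 and 6.72 in knockout 1 and 2, against 6.50 and 6.53 in wild type 1 and 2. The actin ratio was 1.74 in knockout 1 and 1.27 in knockout 2, with 1.32 in wild type 1. Hepatocyte identity was plain on all arrays, with albumin (Alb) between 21620 and 26756 in knockout livers and between 19537 and 26507 in wild-type livers.

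The bases upstream of the transcription start are shown for Aqp8, Aqp1 and Aqp3, the tested genes with separate groups, and for Aqp9, the glycerol channel of hepatocytes, to set the letters searched for hormone response sequences beside these genes. They are 250 bases each from RefSeq on GRCm38.p6, 5′ to 3′ on the gene's strand, ending at the base before the start: Aqp8 at chr7:123462044-123462293 (+), Aqp1 at chr6:55336049-55336298 (+), Aqp3 at chr4:41098184-41098433 (-) and both annotated Aqp9 starts, at chr9:71163290-71163539 (-) and chr9:71162634-71162883 (-). Capitals mark matches on either strand to the insulin response sequence TGTTTTC, the FOXO and FOXA core GTAAACA, the glucocorticoid receptor half-site AGAACA or the TATA box TATAAA.
Aqp8: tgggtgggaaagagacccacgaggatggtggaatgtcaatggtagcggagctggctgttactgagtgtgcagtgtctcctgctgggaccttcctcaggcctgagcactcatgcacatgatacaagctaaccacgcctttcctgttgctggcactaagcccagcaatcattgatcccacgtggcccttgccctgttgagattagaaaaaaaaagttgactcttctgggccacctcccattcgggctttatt
Aqp1: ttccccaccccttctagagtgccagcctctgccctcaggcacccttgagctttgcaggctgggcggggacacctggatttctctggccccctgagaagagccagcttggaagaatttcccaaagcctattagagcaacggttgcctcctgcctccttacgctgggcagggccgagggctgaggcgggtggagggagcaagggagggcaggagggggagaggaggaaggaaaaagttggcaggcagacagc
Aqp3: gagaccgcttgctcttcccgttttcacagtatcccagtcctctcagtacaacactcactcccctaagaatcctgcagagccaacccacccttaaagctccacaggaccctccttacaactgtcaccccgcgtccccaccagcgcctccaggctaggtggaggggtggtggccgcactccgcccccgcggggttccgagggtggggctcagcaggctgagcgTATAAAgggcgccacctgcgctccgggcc
Aqp9, first start: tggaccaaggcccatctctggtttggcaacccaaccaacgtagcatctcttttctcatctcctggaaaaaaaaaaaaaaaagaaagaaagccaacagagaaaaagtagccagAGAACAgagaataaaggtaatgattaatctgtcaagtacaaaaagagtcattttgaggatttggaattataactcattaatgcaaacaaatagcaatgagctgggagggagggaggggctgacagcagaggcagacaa
Aqp9, second start: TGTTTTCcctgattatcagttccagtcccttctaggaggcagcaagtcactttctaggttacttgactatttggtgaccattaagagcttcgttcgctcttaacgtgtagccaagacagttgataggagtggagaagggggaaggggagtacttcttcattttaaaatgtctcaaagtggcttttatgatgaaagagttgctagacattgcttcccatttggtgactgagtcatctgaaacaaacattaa
The Aqp8 and Aqp1 windows held none of these letters. The Aqp3 window held TATAAA from 29 bases before the start, as 12.4% of all 32851 RefSeq windows of this length held it. The window of the first Aqp9 start held AGAACA from 138 bases before the start, as 16.1% did, and no TGTTTTC. That of the second start held TGTTTTC at its first base, 250 before the start, as 6.33% did. The share for GTAAACA was 3.17%. These are matches of letters and no measurement of binding.

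The water channel Aqp8 differed most. Its signal was 243, 562, 550 and 826 in knockout 1 to 4, against 1736, 2314, 1633 and 1365 in wild type 1 to 4. All 4 knockout livers lay below all 4 wild-type livers, with knockout 1 the lowest of the 8. The mean was 545 ± 239 in knockout livers and 1762 ± 400 in wild-type livers (SD, n = 4 each), so that the knockout stood at 30.9% of wild type. The log2 fold change, knockout minus wild type on log2(signal + 16), was -1.76 ± 0.32 (SE; limma adjusted p = 0.0515). This adjusted p, over all 20395 probe sets, missed the threshold of 0.05 by a small margin, and the probe set ranked 75 of them by p. It came under 0.05 with the array set as a block (-1.76 ± 0.32; limma adjusted p = 0.0418, with 0.397% of all tested probe sets called lower in that fit), without knockout 1 (-1.42; limma adjusted p = 0.0490) and without knockout 4 (-1.99; limma adjusted p = 0.0203), and it reached 0.187 without wild type 2. Without wild type 4, the array that goes against its label, the values were -1.87 for Aqp8 (limma adjusted p = 0.0910), -0.54 for Aqp1, 0.70 for Aqp3 and 0.12 for the brighter Aqp9 probe set.

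**Figure D1:**
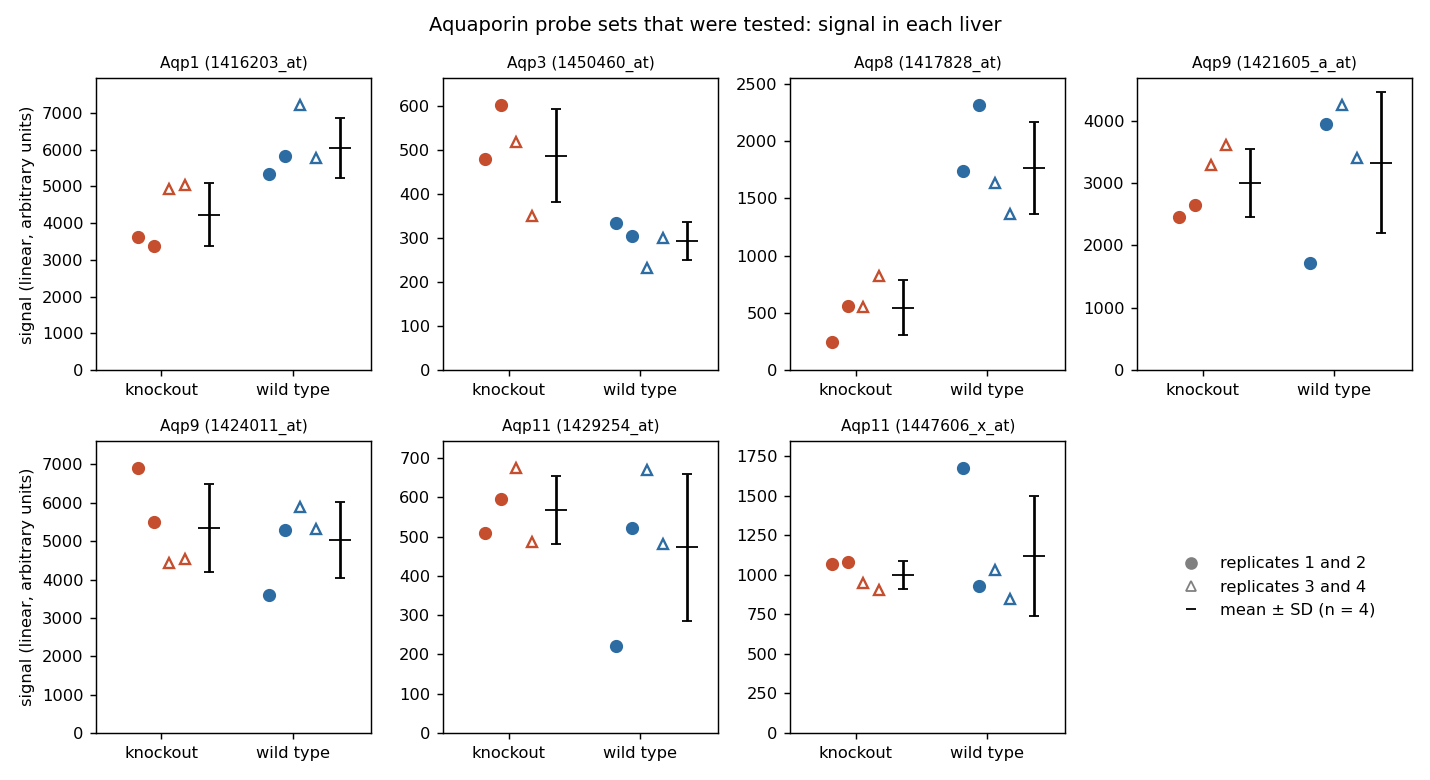
Signal (linear, arbitrary units) of the 7 tested aquaporin probe sets in each liver, with knockout livers left and wild-type livers right; filled circles are replicates 1 and 2, open triangles replicates 3 and 4, and bars the mean ± SD (n = 4). The Aqp8 and Aqp1 signals of all 4 knockout livers lie below those of all 4 wild-type livers, the Aqp3 signals (1450460_at) above them, and the groups overlap for Aqp9 and Aqp11.

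Aqp1, the water channel of red cells and endothelium, showed the same order of groups at a smaller size. Its signal was 3622, 3366, 4917 and 5031 in knockout 1 to 4, against 5349, 5838, 7215 and 5761 in wild type 1 to 4. The groups did not overlap, and knockout 1 and 2 lay lower than knockout 3 and 4. Means were 4234 ± 862 in knockout livers and 6041 ± 812 in wild-type livers (SD, n = 4 each), 70.1% of wild type, for a log2 fold change of -0.52 ± 0.16 (SE; limma adjusted p = 0.187). It was not called.

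The glycerol channel Aqp3, known from skin, kidney and gut, ran the other way. Its brightest probe set had a signal of 478, 601, 517 and 350 in knockout 1 to 4, against 334, 305, 233 and 299 in wild type 1 to 4. All 4 knockout livers lay above all 4 wild-type livers, with knockout 4 close to wild type 1. The mean was 487 ± 105 in knockout livers and 293 ± 43.0 in wild-type livers (SD, n = 4 each), 1.66 times as high in the knockout, and the log2 fold change was 0.69 ± 0.19 (SE; limma adjusted p = 0.144), which was not called. The 3 other Aqp3 probe sets stayed under the minimum on every array. Of these, 1422008_a_at read 127, 185, 152 and 135 in knockout 1 to 4 and 75.2, 101, 39.5 and 90.8 in wild type 1 to 4, again without overlap (0.88 ± 0.29; limma adjusted p = 0.366 in a fit of all 45037 probe sets without a minimum). Its counterpart 1422007_at stood at 0.72 ± 0.42 and 1447727_at at 0.09 ± 0.67, both with overlapping groups.

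Aqp9, the main glycerol channel of hepatocytes, had overlapping groups and fold changes near 0. Its brighter probe set (1424011_at) read 6917, 5491, 4439 and 4541 in knockout 1 to 4, against 3606, 5298, 5900 and 5307 in wild type 1 to 4. The highest value was that of knockout 1 and the lowest that of wild type 1. Means were 5347 ± 1149 in knockout livers and 5028 ± 989 in wild-type livers (SD, n = 4 each), with a log2 fold change of 0.09 ± 0.19 (SE; limma adjusted p = 0.870). The other probe set (1421605_a_at) read 2456, 2645, 3289 and 3606 in knockout 1 to 4, against 1715, 3951, 4251 and 3395 in wild type 1 to 4, with a log2 fold change of -0.09 ± 0.27. Wild type 1 was again the lowest liver, and the sign of these values turned with single arrays left out.

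Aqp11, a member of the endoplasmic reticulum membrane, gave probe sets that disagreed. The brightest (1447606_x_at) read 1067, 1083, 946 and 903 in knockout 1 to 4, against 1679, 928, 1032 and 847 in wild type 1 to 4 (-0.12 ± 0.20). A second (1429254_at) read 509, 597, 676 and 487 in knockout 1 to 4, against 220, 521, 669 and 481 in wild type 1 to 4 (0.34 ± 0.29). Wild type 1 was the highest of all livers by the first of these and the lowest by the other, and without it the values were 0.09 and 0.03. The third (1455846_at) reached 200 on 3 arrays only and read 245, 168, 250 and 179 in knockout 1 to 4, against 79.8, 31.4, 152 and 222 in wild type 1 to 4.

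**Figure D2:**
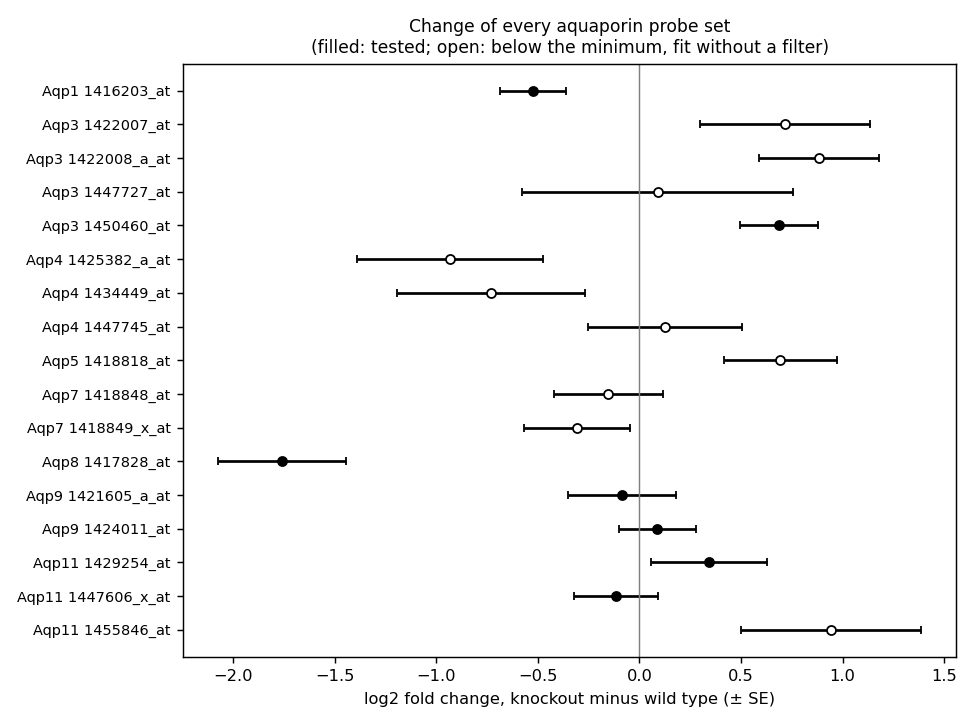
Log2 fold change (knockout minus wild type, with SE) of all 17 aquaporin probe sets; filled points were tested, and open points are probe sets under the minimum, from the fit without one. Aqp8 lies farthest from 0, at -1.76, and the 4 Aqp3 probe sets lie between 0.09 and 0.88.

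The remaining members stayed at low signals in newborn liver. Aqp7, the glycerol exit channel of fat cells, read 16.1 to 35.9 in knockout livers and 17.5 to 44.1 in wild-type livers by 1418848_at, and 27.4 to 45.2 in knockout livers and 33.1 to 59.5 in wild-type livers by 1418849_x_at. The 4 fat cell markers named on the array summed to 232.4 to 447.7 in knockout livers and 283.1 to 478.6 in wild-type livers. Among them, Adipoq lay between 2.4 and 41.9 in knockout livers and between 3.1 and 34.2 in wild-type livers. Cidec went up without overlap, with at least 43.2 in knockout livers and at most 29.8 in wild-type livers (log2 fold change 1.31). Retn, the 1 marker tested, went down with overlapping groups (-0.46). The part of fat cells in these signals was not tested. Aqp5, the water channel of glands and lung, read 22.4, 20.2, 60.2 and 36.4 in knockout 1 to 4 and 10.9, 18.7, 15.3 and 11.8 in wild type 1 to 4. These groups did not overlap, at a level where 20.2 and 18.7 were neighbours (0.69 ± 0.28; limma adjusted p = 0.480 without a minimum). Aqp4, the water channel of astrocytes, read 12.1 to 133 in knockout livers and 46.9 to 271 in wild-type livers over its 3 probe sets, with fold changes of -0.93 ± 0.46, -0.73 ± 0.46 and 0.13 ± 0.38 on the log2 scale. The table holds no detection calls, so no level of Aqp4, Aqp5 or Aqp7 is called present or absent.

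**Figure D3:**
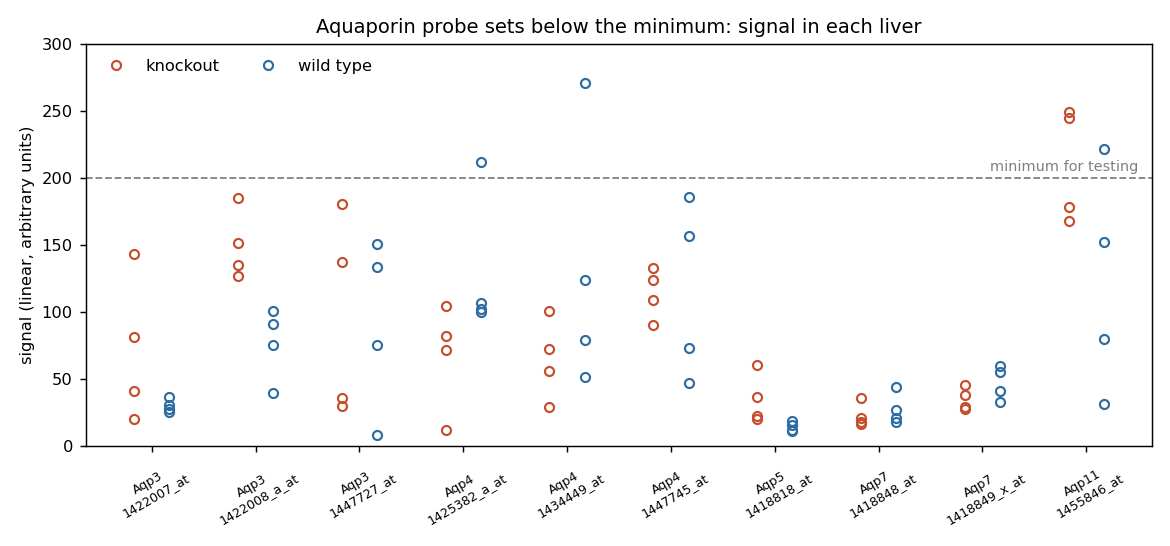
Signal (linear, arbitrary units) of the 10 aquaporin probe sets under the minimum in each liver, knockout livers left of wild-type livers for each probe set; the dashed line marks the minimum of 200. The Aqp7 and Aqp5 signals reach at most 60.2 in any of the 8 livers.

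Set against the whole array, 0 of the 7 tested aquaporin probe sets were called higher and 0 lower at a limma adjusted p under 0.05. The background was 0.147% of all tested probe sets called higher and 0.152% called lower. At an unadjusted p under 0.05, 3 of the 7 passed (Aqp8, Aqp1 and Aqp3), where 14.4% of all tested probe sets did so. The groups did not overlap for the same 3, against a background of 9.32%. Over all 17 aquaporin probe sets, whatever their signal, the groups did not overlap for 5, against 5.8% of all probe sets on the array. Among the genes tested, the glycerol channels had log2 fold changes of 0.69 (Aqp3) and 0.09 (Aqp9, brighter probe set) and the water channels of -1.76 (Aqp8) and -0.52 (Aqp1), beside a median of -0.03 over all tested probe sets.

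The water and the glycerol channel of hepatocytes were also set against each other within each array, although neither was called. The log2 difference between the Aqp8 and the brighter Aqp9 probe set was -4.75, -3.25, -2.98 and -2.44 in knockout 1 to 4, against -1.05, -1.19, -1.84 and -1.95 in wild type 1 to 4. Its zero point has no meaning, because the probe sets share no scale, but its shift between groups does. The mean was -3.35 ± 0.99 in knockout livers and -1.51 ± 0.45 in wild-type livers (SD, n = 4 each), a shift of -1.85 with no overlap. An exact two-sided permutation test over the 70 groupings gave p = 0.0286, the smallest that 4 against 4 samples allow. The pair was chosen with the separate Aqp8 groups known, so this p is no independent evidence of a difference. The shift was -1.99 without wild type 4, -2.88 for replicates 1 and 2 alone and -0.81 for replicates 3 and 4 alone.

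The array sets were also taken alone, each with 2 knockout and 2 wild-type livers. Aqp8 stood at -2.39 ± 0.38 in the first set and -1.13 ± 0.22 in the second (SE; limma adjusted p = 0.0706 and 0.147), and Aqp1 at -0.68 ± 0.21 and -0.37 ± 0.14. Aqp3 stood at 0.72 ± 0.25 and 0.66 ± 0.24, a difference of 0.06 ± 0.35. The brighter Aqp9 probe set stood at 0.49 ± 0.26 in the first set and at -0.32 ± 0.11 in the second. Of 9 hepatocyte markers, 8 lay above 0 with all 8 arrays, against 45.8% of all tested probe sets, at a median of 0.08. Their summed signal was 174513 to 228010 in knockout livers and 157368 to 198444 in wild-type livers. The median of these markers was 0.32 in the first set and -0.14 in the second. Testing the first set against the second gave -1.26 ± 0.51 for Aqp8 and 0.81 ± 0.29 for this Aqp9 probe set (first minus second; limma adjusted p = 0.490 for each), so neither difference was called, and 0.00981% of all tested probe sets were. The order of groups of this Aqp9 probe set turned round between the sets without overlap, as it did for 6.14% of all tested probe sets.

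**Figure D4:**
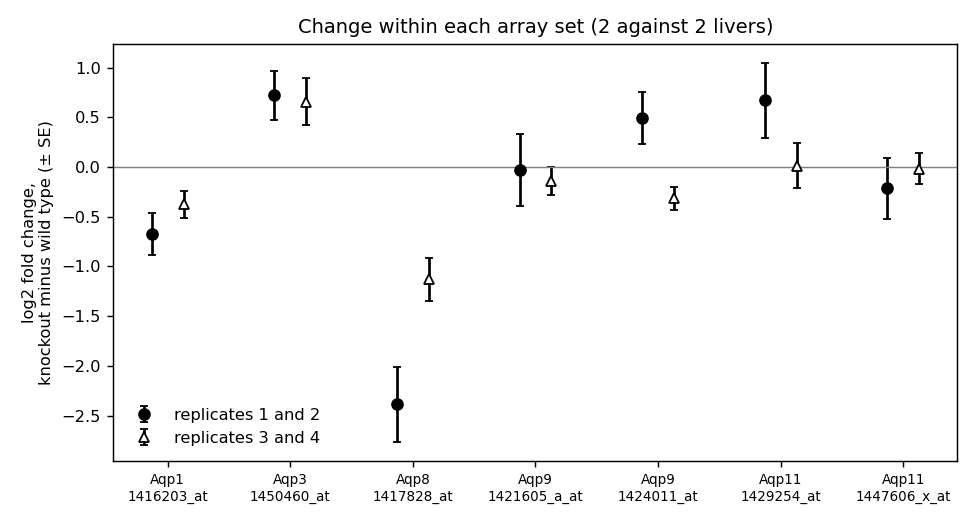
Log2 fold change (knockout minus wild type, with SE) of the 7 tested aquaporin probe sets within the first (filled circles) and the second (open triangles) array set, 2 against 2 livers each. Aqp8 lies below 0 in both sets, at -2.39 and -1.13, and the Aqp9 probe set 1424011_at lies above 0 in the first set and below it in the second.

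Markers of cell types that hold aquaporins were read on the same arrays, and 0 of the tested members of the 12 marker lists were called. Of all tested probe sets, 0.147% were called higher and 0.152% lower, and 45.8% lay above 0. With shares of calls this small, 0 calls do not show equal cell numbers. In a whole liver, fewer cells of a type and less RNA per cell cannot be told apart. For the erythroid cells that carry Aqp1, the summed signal of 8 markers was 43411, 37430, 47912 and 58244 in knockout 1 to 4, against 50818, 45817, 54874 and 44447 in wild type 1 to 4. These groups overlapped, 1 of the 7 tested lay above 0 at a median log2 fold change of -0.12, and the median in the first and second set was -0.66 and 0.16, where Aqp1 stood at -0.68 and -0.37. The red cell anion exchanger Slc4a1 was the brightest of the list. It lay between 13432 and 18443 in knockout livers and between 15392 and 18845 in wild-type livers. The probe set named for Hba-a1 missed the minimum for testing. It lay between 95.5 and 216 in knockout livers and between 101 and 226 in wild-type livers. Whether this probe set reports the alpha globin RNA was not tested, so its signal is not taken as the level of that RNA. Endothelial markers summed to 8899 to 13917 in knockout livers and 7868 to 12152 in wild-type livers, and 4 of 9 lay above 0 at a median log2 fold change of -0.04 (0.15 in the first set and -0.22 in the second). Among them, Pecam1 stood at 0.13, Lyve1 at 0.54 and Stab2 at -0.24.

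Aqp8 and Aqp12 are also known from pancreatic acinar cells. The 4 acinar markers named on the array summed to 2868, 950, 4404 and 988 in knockout 1 to 4, against 954, 848, 2104 and 854 in wild type 1 to 4, and the chymotrypsinogen gene Ctrb1 ran from 27.3 to 2357 in knockout livers and from 34.6 to 906 in wild-type livers. Knockout 3, the liver with most of it, had an Aqp8 signal of 550. Bile duct markers, whose cells carry Aqp1, summed to 632 to 1438 in knockout livers and 572 to 2006 in wild-type livers, with Krt19 at 114 to 312 and at 108 to 294 and 5 of 7 genes under 200 on all arrays. Markers of skin and stomach, tissues that carry Aqp3, summed to 570 to 929 in knockout livers and 695 to 1026 in wild-type livers, with 5 of 7 genes under 200 on all arrays. The 2 tested members went opposite ways, with Krt5 at 0.79 and Atp4a at -0.42 on the log2 scale. The part of other cells and of RNA quality in the aquaporin values was not tested.

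The other genes of the family gave no call. Aqp12 read 375, 171, 50.7 and 323 in knockout 1 to 4, against 270, 230, 249 and 306 in wild type 1 to 4 (-0.46 ± 0.47), and Aqp2, the vasopressin-regulated channel of the kidney, stood at -0.32 ± 0.26. Mip and Aqp6 had no probe set at the minimum.

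Genes that handle glycerol beside the channels were counted in a list of 23, of which 21 were tested. Of these, 2 were called lower and 0 higher (background 0.152% and 0.147%), with 14 of 21 above 0 and a median of 0.22, which was 0.09 without wild type 1. The median was 0.42 in the first array set and -0.05 in the second, so it lay above 0 in the first set only. Without knockout 4, 2 were called higher, in a fit that called 211 of all 20395 probe sets higher. G0s2, which blocks the triglyceride lipase Pnpla2, fell to 1826 ± 397 in knockout livers, against 3850 ± 463 in wild-type livers (SD, n = 4 each; log2 fold change -1.09 ± 0.17 SE; limma adjusted p = 0.0419). Gpd2, which oxidises glycerol 3-phosphate at the mitochondrion, fell by 1.77 ± 0.31 on the log2 scale (limma adjusted p = 0.0488). This was the brighter of its 2 tested probe sets. The other was not called, as the list still held 2 called lower with every tested probe set counted. Both calls were lost without knockout 1, 2 or 3 and without wild type 2, 3 or 4, where the list had 0 called lower, as it had with a minimum of 100, with none and with median centring. It had 1 called lower without wild type 1 and with the replicate number as a block. Tpi1, of triose phosphate isomerisation, stood at 0.51 ± 0.12, and Pck1, the entry enzyme of gluconeogenesis, at 0.61 ± 0.18.

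Lists for bile transport, ammonia, hydrogen peroxide and the regulation of aquaporin genes held no called gene with all 8 arrays. Of all tested probe sets, 0.147% were called higher and 0.152% lower, and 45.8% lay above 0. The median log2 fold changes of the lists in the first and second array set were 0.20 and 0.09 for bile transport and 0.27 and 0.08 for ammonia. They were 0.15 and 0.04 for hydrogen peroxide and 0.33 and 0.02 for regulation. The medians below take the brightest tested probe set of each gene. With every tested probe set counted they were 0.18 for bile transport, 0.14 for ammonia, 0.04 for hydrogen peroxide and 0.28 for regulation. Of 12 tested bile transport genes, 6 lay above 0 at a median of 0.08 (0.02 without wild type 3 to 0.11 without wild type 1, with arrays left out in turn), with the phospholipid floppase Abcb4 at 0.35 ± 0.14, the sterol transporter Abcg5 at -0.77 ± 0.38, the bile salt importer Slc10a1 at 0.29 ± 0.16 and the canalicular pump Abcc2 at 0.93 ± 0.53. Of 12 ammonia and urea genes, 7 lay above 0 at a median of 0.30, which was 0.13 without knockout 3 and 0.19 without knockout 1. Without knockout 4, 1 of these genes was called higher, in a fit that called 211 of all 20395 probe sets higher. In that list Nags, which makes the activator of urea synthesis, stood at 0.75 ± 0.18, Arg1 at 0.74 ± 0.28, Cps1 at 0.28 ± 0.11 and the ornithine carrier Slc25a15 at 0.49 ± 0.20. Of 10 hydrogen peroxide genes, 6 lay above 0 at a median of 0.04 (-0.03 without knockout 1 to 0.09 without wild type 3, and -0.08 with quantile normalization), with the mitochondrial superoxide dismutase Sod2 at 0.40 ± 0.15, Prdx3 at 0.21 ± 0.11, Txn2 at 0.23 ± 0.13 and catalase (Cat) at 0.08 ± 0.11. Of 14 genes for hormone signals and transcription factors that act on aquaporin genes, 9 lay above 0 at a median of 0.25 (0.11 without knockout 1), with the insulin receptor substrate Irs2 at 0.71 ± 0.17, the coactivator Ppargc1a at 1.42 ± 0.38, Hnf4a at 0.73 ± 0.27 and Esr1 at -0.40 ± 0.18.

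The genes whose log2 signal ran most like each aquaporin over the 8 arrays were named by Pearson's r, as a description of arrays that share their array sets. For Aqp8 they were the guanylate-binding protein gene Gbp6 (r = 0.991), Acad9 of complex I assembly (r = 0.988) and Crot, the peroxisomal carnitine octanoyltransferase (r = 0.988), and none of these 3 was called. Crot read 3558, 6680, 6227 and 8662 in knockout 1 to 4, against 14124, 13721, 11607 and 10913 in wild type 1 to 4. It shared with Aqp8 the separate groups and the lowest place of knockout 1, which follows from its choice by r. For Aqp3 they were the malic enzyme Me1 (r = 0.978), Cpne3 (r = 0.974) and the monoacylglycerol lipase Abhd6 (r = 0.968). For Aqp1 they were Anapc15 (r = 0.974), Cnot10 (r = 0.972) and G3bp1 (r = 0.969), and for Aqp9 Sptlc2 (r = 0.988), Nid1 (r = 0.975) and the coagulation factor gene F5 (r = 0.970). For Aqp11 they were Selenot (r = 0.985), Foxo3 by its probe set most like Aqp11 (r = 0.976) and Ppil3 (r = 0.973). Each had its highest signal in wild type 1, which also follows from the choice by r. Another Foxo3 probe set was highest in knockout 3, at 1749, against 1612 in wild type 1.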

How the data were processed

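Total RNA of individual livers was measured on Affymetrix Mouse 430 2.0 arrays. The deposited intensity values were, per the labels, made with GCOS 1.2 at default settings and scaled on each array to a target of 500; the trimmed mean was checked to be 500.0 on all 8 arrays, and this scaling was kept. Affymetrix control probe sets (64) were left out. Probe sets were named from the platform annotation joined by Entrez identifier to RefSeq (34945 with 1 gene, 932 with several, 9160 with none, 204 with an identifier not matched). Glycerol kinase was not analysed here, so the targeted gene did not check the labels.

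Log2(signal + 16) of the 20395 probe sets with at least 200 on at least 4 arrays was compared in limma 3.58.1 (R 4.3.3; moderated two-sided tests by eBayes with an intensity trend, and Benjamini-Hochberg adjustment over all of them). The fit was also run on simulated data with independent normal noise and no array sets, which does not cover the differences between arrays described above. Permutation tests used scipy 1.17.1, figures matplotlib 3.10.9. Whether livers came from separate litters is not stated, so p-values measure the spread between these pups. The text names every aquaporin probe set, in each gene list called members and up to 4 by smallest p (by the brightest tested probe set), and the 3 genes most like each aquaporin. Members, lists and the array set as a block were chosen with earlier results of these data known. Alternatives were other pseudocounts, minimums, scalings and limma settings, blocks, and arrays left out.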

Additional observations from a re-analysis of the deposited data

Results flagged for a closer look

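The brighter Aqp9 probe set (1424011_at) gave opposite orders of the groups in the 2 array sets. In the first set both knockout livers (6917 and 5491) lay above both wild-type livers (3606 and 5298), and in the second both knockout livers (4439 and 4541) lay below both wild-type livers (5900 and 5307). The difference between the sets, first minus second, was 0.81 ± 0.29 (SE; limma adjusted p = 0.490), so it was not called. Such a pattern was found for 6.14% of all tested probe sets. The other Aqp9 probe set gave 0.11 ± 0.46.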

How the results depend on the processing

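The direction held in all 25 alternatives for Aqp8 and Aqp1, and in all 24 that tested Aqp3. Because the groups of these probe sets did not overlap, only a change of scaling could have turned it. This count is therefore no further evidence of a difference. Aqp8 was called in 8 of them: with array weights (-1.55), a pseudocount of 64 (-1.66), quantile normalization (-1.74), a minimum of 400 (-1.76), the array set as a block (-1.76, and -1.93 without wild type 4 as well), and without knockout 1 or 4. With arrays left out in turn its value ran from -1.99 to -1.42, with limma adjusted p from 0.0203 to 0.187. Aqp3 was called with array weights (0.74; limma adjusted p = 0.0431). The count of aquaporin probe sets called higher was therefore 1 with array weights and 0 otherwise, and of those called lower 1 in the 8 settings above and 0 otherwise. Over all probe sets these weights called 749, against 61 without them, and 334 were called without knockout 4.

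With the replicate number as a block, Aqp8 stood at -1.76 (limma adjusted p = 0.0748), Aqp1 at -0.52 and Aqp3 at 0.69, and 0 aquaporins were called. Deviations of same-numbered livers correlated at 0.22, 0.40, 0.34 and 0.05. For differently numbered livers of the same array set, the values were 0.08 and 0.07 in the first set and 0.37 and 0.21 in the second. Across the sets they ran from -0.34 to -0.04. The labels give replicate numbers only, so the numbers were not taken to pair the livers.

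The shift between Aqp8 and Aqp9 was -2.88 in the first set and -0.81 in the second, and ran from -2.15 to -1.38 with arrays left out; the smallest exact p there is 0.333 and 0.0571, so none could pass. The sign of the brighter Aqp9 probe set turned with array weights (-0.18), in the second set (-0.32), without knockout 1 and wild type 4 together (-0.00882), and without knockout 1 (-0.04) or wild type 1 (-0.0627), and its values ran from -0.0627 to 0.17 with arrays left out. That of the other turned without knockout 1 (0.00380), wild type 2 (0.02) or wild type 3 (0.0583), and without knockout 1 and wild type 4 together (0.0403), within -0.38 to 0.0583 with arrays left out. That of the Aqp11 probe set 1447606_x_at turned without wild type 1 (0.0943), within -0.23 to 0.0943. The cause was not tested. Blocks without wild type 4 and the pair left out together were chosen after seeing the data.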
